A study of Mus musculus with 23 samples.

Results

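The expression of 10 genes of the NRF2 antioxidant pathway was described in quadriceps and epididymal fat of tumor-bearing mice. The genes were chosen by symbol and were Nfe2l2, Keap1, Gclc, Gclm, Gsr, Srxn1, Txnrd1, Txnip, Hmox1 and Nqo1. All 10 were present among the 12831 genes counted in quadriceps and among the 16962 genes counted in epididymal fat. The rule that chose them used no expression value, but earlier results of these data were known at the time. NRF2, the protein encoded by Nfe2l2, is a transcription factor that KEAP1 holds in the cytoplasm and marks for degradation by way of the CUL3 ubiquitin ligase. When electrophiles or oxidants modify KEAP1, NRF2 escapes, pairs with a small MAF protein and binds antioxidant response elements near genes for glutathione synthesis, thioredoxin recycling, haem breakdown and quinone reduction. Because the control is largely at the level of NRF2 protein, mRNA of its targets is the usual transcript readout. TXNIP differs from the others, since it binds and inhibits thioredoxin and is known as a gene induced by glucose and by FOXO factors.

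The mice were 8-week-old male C57BL/6J animals at surgery and formed 3 groups, referred to as no tumor, KPC and KPC IL6KO. No tumor mice had sham surgery. KPC mice received, in the pancreas, a cell line from a pancreatic tumor of a genetically engineered mouse, as a single-cell clone that had been given a CRISPR/Cas9 plasmid with a null guide. KPC IL6KO mice received another single-cell clone of the same line in which a guide against Il6 had removed Il6 mRNA, so that each tumor group rests on 1 clone, and Il6 of the host was intact in all groups. Quadriceps came from 3 no tumor, 4 KPC and 4 KPC IL6KO mice (libraries 1 to 3 or 4), and epididymal fat from 4 mice of each group (libraries 5 to 8), with the RNA of both tissues isolated and sequenced separately. No sample code occurs in both tissues, and whether a mouse gave both is not stated in the sources used here. The paper reports larger tumors in KPC than in KPC IL6KO mice, and no correlation of tumor mass with muscle mass. All groups were euthanized together, when KPC mice met the humane endpoint. The comparisons ask whether the 10 genes differed with a KPC tumor, and whether they differed when the tumor cells lacked Il6. Between both tumor groups, loss of Il6, clone and tumor size cannot be told apart.

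Library totals ran from 19259763 to 74907810 counts in quadriceps and from 26306377 to 56308545 in epididymal fat. Levels are given as CPM, counts scaled to the TMM-normalized size of the library, and every member had at least 138 counts in each library. The coefficient of variation between mice of a group, from the common edgeR dispersion, was 22.7% in quadriceps and 63.5% in fat. All 8 myofiber markers were measured in quadriceps at a summed 124897 to 194572 CPM. All 6 adipocyte markers were measured in fat, and their sum was uneven between pads. It ran from 1467 to 24617 CPM in no tumor, 2190 to 9956 CPM in KPC and 4298 to 16132 CPM in KPC IL6KO. In quadriceps the same 6 markers summed to 128 to 2451 CPM, which overlaps with the lowest fat pads. The fat pads held epididymis transcripts to different degrees. Gpx5 encodes a glutathione peroxidase of the epididymis. It reached 21347 to 54957 CPM in 7 pads, which were no tumor 5 and 7, the 4 KPC pads and KPC IL6KO 6, whereas the remaining 5 had 4.69 to 85.8 CPM. Gpx5 does not stand for all epididymis transcripts. The 10 epididymis markers summed to 41200 to 88711 CPM in the 7 pads and still to 11512 to 21672 CPM in 4 of the remaining 5, with 844 CPM in KPC IL6KO 5. Crisp1, another gene of that list, went the opposite way, with 156 to 5754 CPM in the 7 pads and 9432 to 14517 CPM in those 4.

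RefSeq promoter windows of GRCm38.p6, from 250 bases before to 50 bases after a transcript start, were at hand for 7 of the 10 genes (9 windows, 3 of them of Txnrd1). They were searched on both strands for the core of the antioxidant response element in the forms TGACNNNGC and TGAGNNNGC. Of the 32851 promoters in the same table, 27.8% held at least 1 of these (12.4% the first form and 17.6% the second), so a single match is common. The 4 windows with a match are printed because they carry the letters through which NRF2 and small MAF proteins are known to bind, with the matches in capitals.

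Srxn1, chr2:152105274-152105573, plus strand: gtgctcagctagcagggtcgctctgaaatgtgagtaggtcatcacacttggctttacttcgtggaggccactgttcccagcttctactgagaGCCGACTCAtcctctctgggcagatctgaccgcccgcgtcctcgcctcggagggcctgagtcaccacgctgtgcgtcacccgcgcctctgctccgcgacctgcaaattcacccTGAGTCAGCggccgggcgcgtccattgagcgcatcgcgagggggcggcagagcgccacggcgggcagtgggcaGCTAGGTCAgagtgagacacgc

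Gclm, chr3:122245307-122245606, plus strand: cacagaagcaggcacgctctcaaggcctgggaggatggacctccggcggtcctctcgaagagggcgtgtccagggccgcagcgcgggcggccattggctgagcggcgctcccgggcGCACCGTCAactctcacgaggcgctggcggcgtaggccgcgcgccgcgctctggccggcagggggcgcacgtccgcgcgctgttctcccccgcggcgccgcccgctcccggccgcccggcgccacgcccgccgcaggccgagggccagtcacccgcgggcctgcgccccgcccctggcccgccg

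Nfe2l2, chr2:75704614-75704913, minus strand: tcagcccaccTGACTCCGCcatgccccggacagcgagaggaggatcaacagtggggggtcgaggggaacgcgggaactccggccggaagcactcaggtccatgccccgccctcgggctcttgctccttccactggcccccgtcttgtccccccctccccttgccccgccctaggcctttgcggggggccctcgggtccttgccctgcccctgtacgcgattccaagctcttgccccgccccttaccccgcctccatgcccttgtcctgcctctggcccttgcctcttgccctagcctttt

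Txnrd1, chr10:82858956-82859255, plus strand: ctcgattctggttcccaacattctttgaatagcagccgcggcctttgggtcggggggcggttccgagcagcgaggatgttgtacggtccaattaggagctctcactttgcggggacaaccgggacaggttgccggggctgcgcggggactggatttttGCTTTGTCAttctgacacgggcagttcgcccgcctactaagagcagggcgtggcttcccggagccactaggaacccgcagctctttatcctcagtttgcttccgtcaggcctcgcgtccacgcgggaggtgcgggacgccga

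The Srxn1 window held 3 matches, first bases at -158, -45 and 29 from the transcript start, and 0.63% of all promoters held 3 or more. The match at -45 also fits the stricter form TGANTCAGC, which overlaps the shorter motif and occurs in 1.19% of promoters. Gclm had a match at -134, Nfe2l2 at -240 and the middle Txnrd1 window at -92. The windows of Keap1, Nqo1 and Txnip and the other 2 windows of Txnrd1 held neither form. The exact letters CACGTG, an E-box core, were in 7.15% of all promoters and in none of the 9 windows. Variants of these letters were not searched, so this does not show that a window lacks an element for ChREBP or MondoA. Windows of Hmox1, Gclc and Gsr were not used here. A match describes letters in a window and not a site in use.

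In quadriceps of KPC mice, 9 of the 10 genes rose relative to no tumor, against 26.7% of all genes called up in this comparison. A gene was called at an edgeR quasi-likelihood FDR of at most 0.05 and a fold change (FC) of at least 1.5. The median log2 FC of the members was 1.503, where the median over all genes was -0.03, and 9 members had every KPC library above every no tumor library (32.3% of all genes). The largest rise was in Gclm (5.29-fold), followed by Srxn1 (4.06-fold), Hmox1 (4.02-fold), Txnip (3.82-fold), Gsr (3.22-fold), Nfe2l2 (2.49-fold), Keap1 (2.30-fold), Gclc (2.18-fold) and Nqo1 (1.85-fold). Txnrd1 was 1.31-fold higher and was not called. For KPC IL6KO against no tumor none of the 10 genes and 0% of all genes were called in either direction by the same test. The study's own pathway analysis selected oxidative stress genes on these muscle libraries, so a rise here is not independent evidence for that theme.

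**Figure D1:**
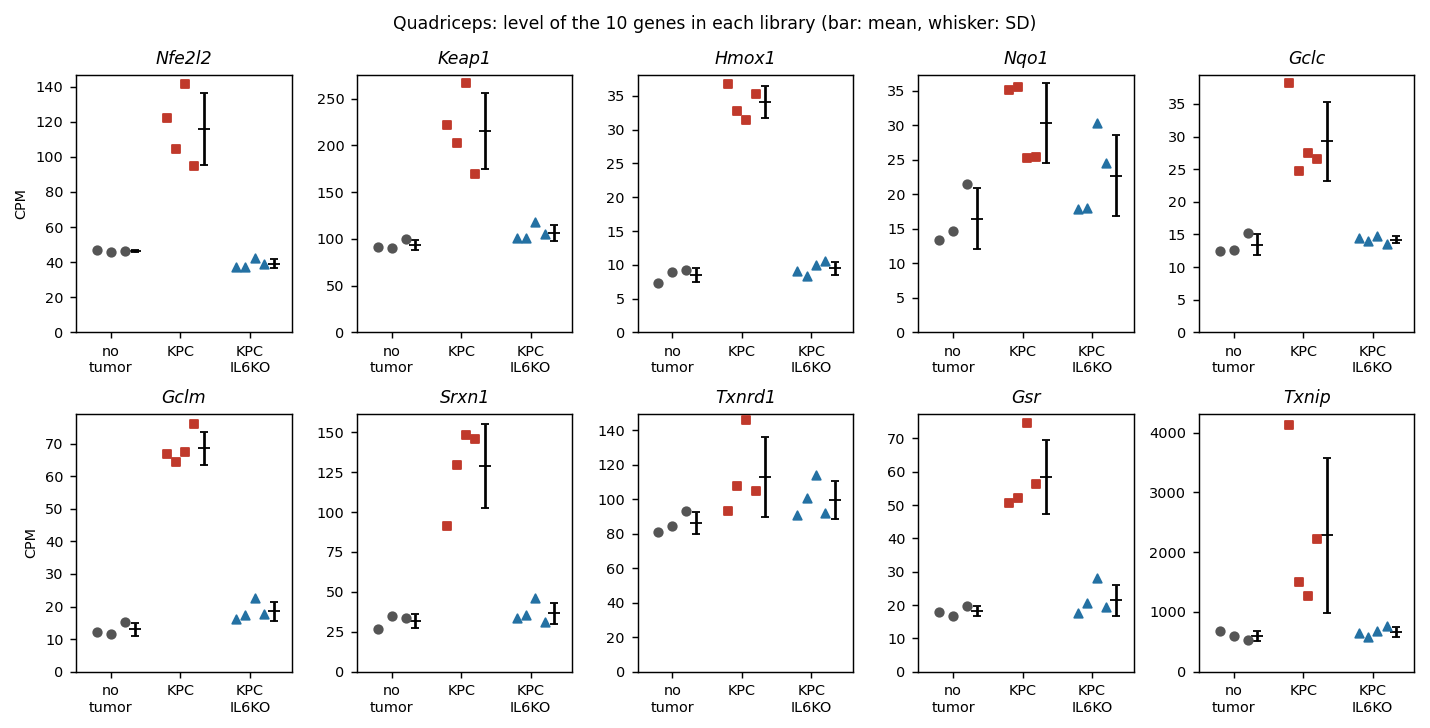
CPM of each of the 10 genes (vertical axes, from 0) in every quadriceps library of no tumor (circles, n = 3), KPC (squares, n = 4) and KPC IL6KO (triangles, n = 4), with the group mean and SD beside the points. The KPC points lie above all others for 8 genes, and for Nqo1 and Txnrd1 they overlap with KPC IL6KO. Of all genes, 32.3% had KPC above no tumor without overlap and 31.2% had KPC above KPC IL6KO. The share with both was not counted.

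The factor and its inhibitor moved in the same direction. Nfe2l2 (mm10 chr2:75675513-75704641, minus strand) was at 47.1, 45.7 and 46.4 CPM in no tumor quadriceps, at 122, 105, 142 and 94.7 CPM in KPC and at 37.01, 37.4, 42.6 and 38.9 CPM in KPC IL6KO. The 3 groups did not overlap, with KPC highest and KPC IL6KO lowest. The log2 FC was 1.32 in KPC against no tumor (standard error 0.13, edgeR FDR 9.05e-06) and 1.57 in KPC against KPC IL6KO (standard error 0.12, edgeR FDR 1.77e-06). For KPC IL6KO against no tumor it was -0.25 (standard error 0.13, edgeR FDR 0.803, unadjusted p = 0.0777). Keap1 (chr9:21229730-21239361, minus strand), the substrate adaptor that holds NRF2, was at 91.5, 89.7 and 99.9 CPM in no tumor, at 222, 202, 267 and 169.8 CPM in KPC and at 101, 101, 118 and 106 CPM in KPC IL6KO. Its log2 FC in KPC was 1.20 relative to no tumor (standard error 0.14, edgeR FDR 2.70e-05) and 1.02 relative to KPC IL6KO (standard error 0.13, edgeR FDR 3.93e-05). Within the KPC group the library with most Nfe2l2, KPC 3, also had most Keap1, and KPC 4 had least of both. An antisense gene, Gm16754, shares 510 exonic bases with Keap1. The libraries were strand-specific, whereas the strand setting of the counting is not given in the sources used here, so reads of the overlapping part cannot be assigned with certainty.

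Both subunits of glutamate-cysteine ligase, the rate-limiting enzyme of glutathione synthesis, rose, and the modifier subunit had the larger FC. Gclc (chr9:77754535-77794485, plus strand), the catalytic subunit, was at 12.5, 12.6 and 15.3 CPM in no tumor, at 38.2, 24.8, 27.5 and 26.6 CPM in KPC and at 14.5, 14.01, 14.8 and 13.6 CPM in KPC IL6KO. KPC lay above both other groups, which overlapped each other. The log2 FC was 1.13 relative to no tumor (standard error 0.15, edgeR FDR 6.06e-05) and 1.04 relative to KPC IL6KO (edgeR FDR 4.84e-05). Gclm (chr3:122245557-122270732, plus strand), whose promoter window held 1 match, was at 12.2, 11.5 and 15.4 CPM in no tumor, at 66.7, 64.3, 67.5 and 75.9 CPM in KPC and at 16.3, 17.4, 22.6 and 17.8 CPM in KPC IL6KO. The 4 KPC libraries were close together, and the lowest of them was at 64.3 CPM against a highest value of 22.6 CPM in the other groups. The log2 FC in KPC was 2.40 relative to no tumor (standard error 0.15, edgeR FDR 7.92e-07) and 1.89 relative to KPC IL6KO (standard error 0.13, edgeR FDR 1.15e-06). Exons of Gm17494 (296 bases, opposite strand) and of the pseudogene Gm6061 (244 bases, same strand) overlap those of Gclm.

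Gsr (chr8:33652523-33698163, plus strand) encodes glutathione reductase, which regenerates reduced glutathione with NADPH. Its level was 18.04, 16.8 and 19.7 CPM in no tumor, 50.7, 52.0, 74.5 and 56.4 CPM in KPC and 17.5, 20.5, 28.0 and 19.4 CPM in KPC IL6KO. The lowest KPC library was above the highest of either other group. The log2 FC in KPC was 1.69 relative to no tumor (standard error 0.18, edgeR FDR 1.43e-05) and 1.45 relative to KPC IL6KO (standard error 0.16, edgeR FDR 1.68e-05).

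Members of the thioredoxin system did not move alike. Srxn1 (chr2:152105516-152111376, plus strand), which encodes sulfiredoxin, the enzyme that repairs over-oxidized peroxiredoxins, and whose window held 3 matches, was at 26.7, 34.9 and 33.5 CPM in no tumor, at 91.3, 129.7, 148 and 146 CPM in KPC and at 33.8, 35.5, 46.1 and 31.2 CPM in KPC IL6KO. KPC 1 had the lowest level of its group and still lay above every library of the other groups. The log2 FC was 2.02 relative to no tumor (standard error 0.20, edgeR FDR 6.90e-06) and 1.81 relative to KPC IL6KO (edgeR FDR 5.89e-06). Txnrd1 (chr10:82833951-82897712, plus strand), the cytosolic thioredoxin reductase, was at 80.9, 84.7 and 93.1 CPM in no tumor, at 93.0, 108, 146 and 105 CPM in KPC and at 90.9, 101, 114 and 92.1 CPM in KPC IL6KO. All 3 groups overlapped. Its log2 FC of 0.39 in KPC relative to no tumor had an edgeR FDR of 0.0387 and was below the FC threshold, and the difference from KPC IL6KO was 0.18 (standard error 0.14, edgeR FDR 0.266).

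Txnip (chr3:96557957-96561883, plus strand) had the most counts of the 10 genes and the widest spread within KPC. It was at 678, 593 and 524 CPM in no tumor, at 4135, 1497, 1270.0 and 2228 CPM in KPC and at 643, 574, 684 and 771 CPM in KPC IL6KO. KPC 1 stood highest, at a level over 3 times that of KPC 3, and each KPC library was above all 7 others. The log2 FC in KPC was 1.93 relative to no tumor (standard error 0.35, edgeR FDR 4.51e-04) and 1.77 relative to KPC IL6KO (standard error 0.31, edgeR FDR 3.66e-04). Without KPC 1 the former was 1.48 and the gene was still called. The antisense gene Gm15441 shares 606 exonic bases with Txnip.

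Hmox1 (chr8:75093621-75100589, plus strand) encodes haem oxygenase 1, which breaks haem down to biliverdin, iron and carbon monoxide. It was at 7.29, 8.94 and 9.22 CPM in no tumor, at 36.7, 32.7, 31.5 and 35.3 CPM in KPC and at 9.10, 8.35, 10.04 and 10.5 CPM in KPC IL6KO. The KPC libraries varied by 6.93% (coefficient of variation), the least of any member in that group, and lay apart from the other groups. The log2 FC was 2.01 relative to no tumor (standard error 0.13, edgeR FDR 9.11e-07) and 1.84 relative to KPC IL6KO (edgeR FDR 6.72e-07). Nqo1 (chr8:107388225-107403206, minus strand), the quinone reductase often taken as the classical NRF2 target, was at 13.3, 14.6 and 21.5 CPM in no tumor, at 35.1, 35.6, 25.3 and 25.4 CPM in KPC and at 17.9, 18.1, 30.3 and 24.6 CPM in KPC IL6KO. KPC was above no tumor in every library, and KPC IL6KO overlapped with both groups. The log2 FC in KPC was 0.89 relative to no tumor (standard error 0.23, edgeR FDR 0.00518) and 0.42 relative to KPC IL6KO (standard error 0.21, edgeR FDR 0.0956). Without KPC IL6KO 3 the latter was 0.59 and passed the test (edgeR FDR 0.0281).

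For KPC IL6KO against no tumor, 0 members and 0% of all genes were called by the quasi-likelihood test. The likelihood ratio test and DESeq2 also called 0 members, where they called 0.195% and 0.244% of all genes up. The log2 FC of the members ran from -0.25 for Nfe2l2 to 0.51 for Gclm, with a median of 0.19. An unadjusted edgeR p under 0.05 was found for Gclm (0.00345, with an edgeR FDR of 0.340 and a standard error of 0.14) and for 6.91% of all genes. Its KPC IL6KO libraries, at 16.3 to 22.6 CPM, were all above the no tumor libraries, as were those of Keap1, against 7.54% of all genes. Nfe2l2 was lower without overlap, against 8.01%. For KPC against KPC IL6KO, 8 members were called up, against 26.4% of genes, and the same 8 did not overlap, against 31.2%. The median log2 FC was 1.51. Both comparisons of KPC share the KPC libraries, and both comparisons with no tumor share its 3 libraries, so they are not separate evidence.

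**Figure D2:**
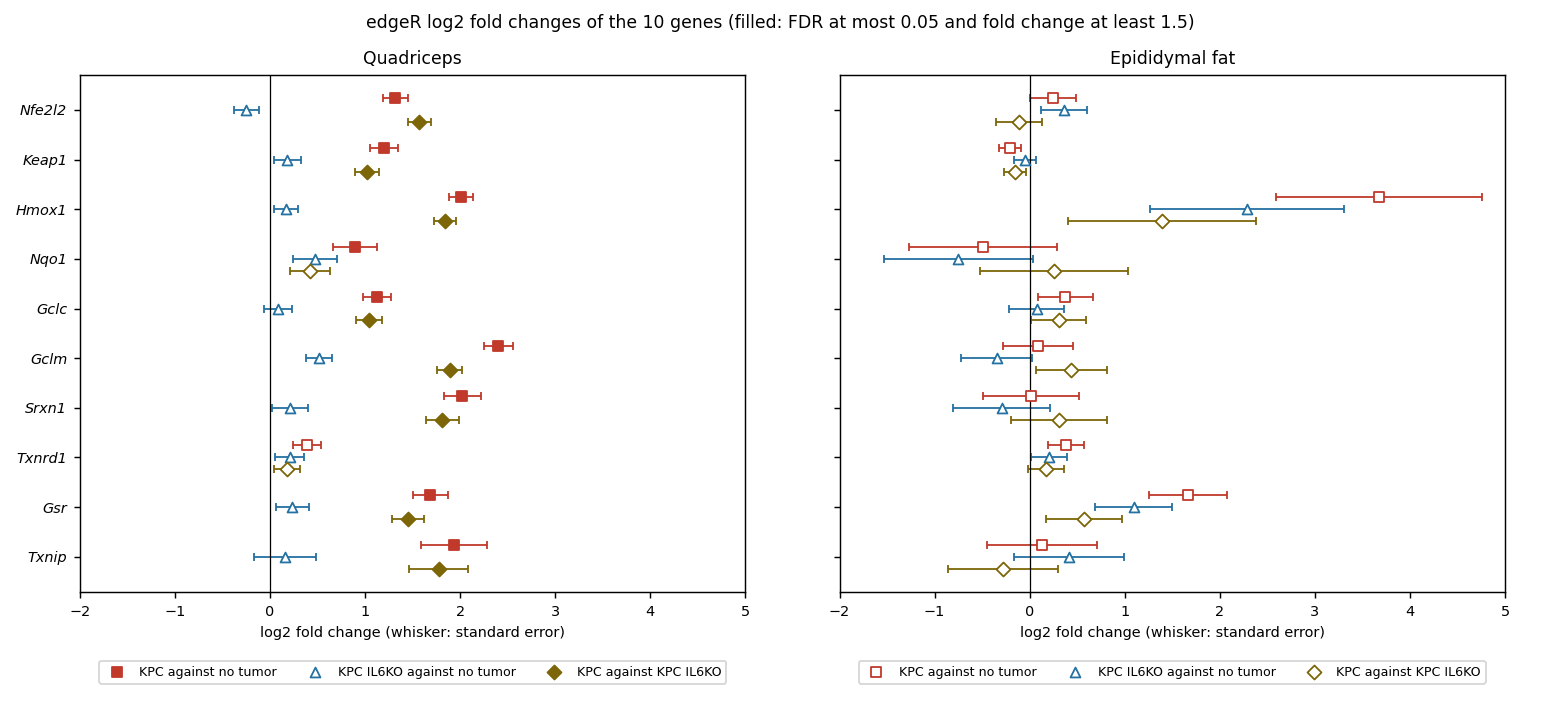
edgeR log2 FC (horizontal axis) with its standard error for the 10 genes (rows) in quadriceps (left) and epididymal fat (right), for KPC against no tumor (squares), KPC IL6KO against no tumor (triangles) and KPC against KPC IL6KO (diamonds). Filled symbols passed the thresholds, which holds for 9, 0 and 8 genes in quadriceps and for 0 genes in fat, where Hmox1 and Gsr lie farthest to the right.

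Several marker groups differed between KPC and no tumor quadriceps as well. The summed level of 8 myofiber genes was 156592 to 193463 CPM in no tumor, 124897 to 143375 CPM in KPC and 179296 to 194572 CPM in KPC IL6KO. The 6 fibroblast markers summed to 988 to 1077, 165 to 284 and 548 to 828 CPM in the same order, so they were lower in both tumor groups. The 4 neutrophil markers measured, of 8 listed, reached 4.50 to 21.8 CPM in KPC and 2.14 to 4.13 CPM in KPC IL6KO against 0.359 to 0.779 CPM in no tumor, and the 2 red blood cell markers measured, of 6, reached 6.15 to 19.99 CPM in KPC and 3.87 to 6.60 CPM in KPC IL6KO against 1.95 to 2.61 CPM. The sum of the 9 macrophage markers measured, of 10, overlapped, at 36.2 to 159 CPM in KPC and 82.5 to 124 CPM in no tumor. Single markers went opposite ways. Cd68 was at 4.16 to 79.5 CPM in KPC against 2.90 to 3.69 CPM in no tumor, and Adgre1 at 0.489 to 2.16 against 2.93 to 3.89 CPM. The muscle table listed no marker of epididymis or pancreas acinar cells. The part of these differences in the rise of the members was not tested. In whole tissue, fewer cells of a type and less RNA per cell cannot be told apart. With library totals in place of TMM, the median log2 FC of all genes moved from -0.03 to -0.24 and the share of up calls among all calls from 48.0% to 36.8%, and the same test still called 9 members up.

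Between genes, levels were compared as CPM per kilobase of exon. In no tumor quadriceps Txnip was highest (192 ± 24.6, SD, n = 3), followed by Keap1 (19.97 ± 1.16) and Nfe2l2 (12.2 ± 0.183), and Gclm was lowest (2.07 ± 0.328). From Nfe2l2 down to Nqo1 the ranges of neighbours overlapped (Nfe2l2, Txnrd1, Srxn1 and Nqo1), and the ranges of Gsr, Hmox1, Gclc and Gclm did not. In KPC the order was Txnip, Keap1, Srxn1, Nfe2l2, Gsr, Nqo1, Hmox1, Txnrd1, Gclm and Gclc. Txnip remained apart from the rest, and Keap1 to Txnrd1 overlapped with their neighbours. Gclm (10.9 ± 0.807, SD, n = 4) was above Gclc (7.77 ± 1.61), the reverse of their order in no tumor. Their ranges nearly met, with the lowest Gclm at 10.21 and the highest Gclc at 10.14.

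The ratio of 2 genes within a library does not depend on scaling. The ratio of Gclm to Gclc counts was 0.976, 0.911 and 1.01 in no tumor quadriceps, 1.75, 2.59, 2.45 and 2.86 in KPC and 1.13, 1.24, 1.52 and 1.31 in KPC IL6KO. The 3 groups did not overlap, and KPC IL6KO lay between the other groups. On the log2 scale the mean was -0.05 ± 0.07 (SD, n = 3), 1.25 ± 0.31 (SD, n = 4) and 0.37 ± 0.18 (SD, n = 4). By 2-sided exact permutation tests the difference was 1.30 for KPC against no tumor (p = 0.0286), 0.42 for KPC IL6KO against no tumor (p = 0.0571) and 0.88 for KPC against KPC IL6KO (p = 0.0286). The ratio of Keap1 to Nfe2l2 was 1.94, 1.96 and 2.16 in no tumor, 1.82, 1.94, 1.88 and 1.79 in KPC and 2.72, 2.68, 2.77 and 2.72 in KPC IL6KO. KPC IL6KO had the highest ratio in all 4 mice, with a log2 difference of 0.43 from no tumor (p = 0.0286, exact permutation). The log2 difference of KPC was -0.55 from KPC IL6KO (p = 0.0286, exact permutation) and -0.12 from no tumor (p = 0.0571, exact permutation). Because 0.0286 is the smallest p that these designs allow and 12 ratio tests were made, the adjusted p was 0.0857 for each of these 4 smallest values, and no ratio passed 0.05.

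**Figure D3:**
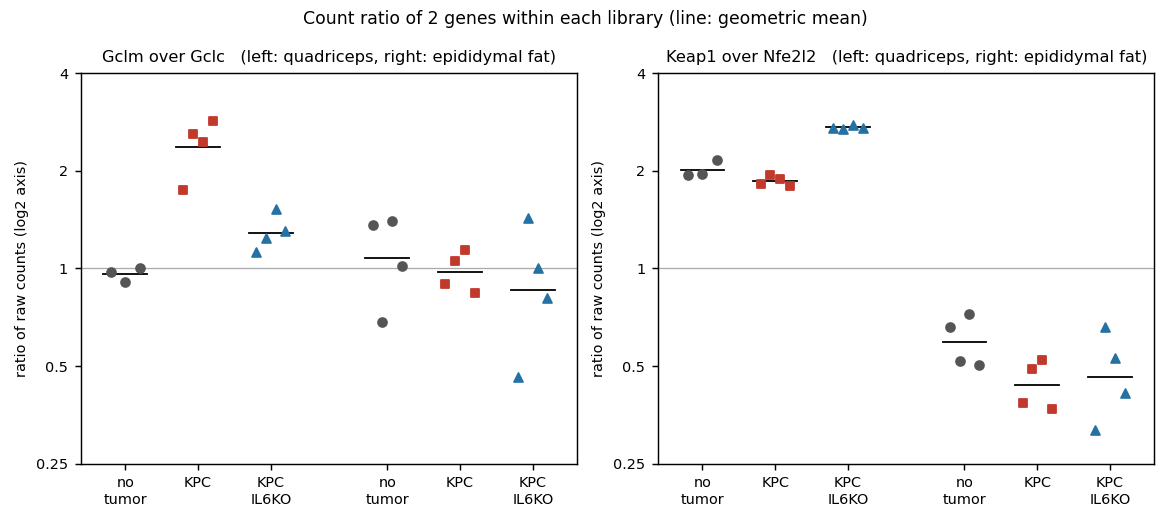
Ratio of raw counts of Gclm to Gclc (left) and of Keap1 to Nfe2l2 (right) in each library, on a log2 axis, for no tumor (circles), KPC (squares) and KPC IL6KO (triangles), with lines at the geometric means. In quadriceps Gclm over Gclc runs from 1.75 to 2.86 in KPC and Keap1 over Nfe2l2 from 2.68 to 2.77 in KPC IL6KO, while in fat the groups overlap.

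The genes whose pattern over the 11 quadriceps libraries was most like that of Gclm were Pir, Nrap and Rnf113a2, with a root mean square difference of 0.125, 0.147 and 0.149 in centred log2 CPM. The median over 10520 genes was 1.05. Pir, which encodes pirin, is itself known as an NRF2 target. For Nfe2l2 the closest were Ptpn2, Ewsr1 and Sptlc1, at 0.126, 0.128 and 0.130, where the median was 0.738. In the 12 fat libraries the closest to Gclm were Tsc1, Cdc42se2 and Sestd1 (0.141 to 0.172) and to Nfe2l2 were Taf15, Nup133 and Ppap2c (0.105 to 0.128), and no gene was among the 3 closest in both tissues.

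Of 11 other genes that control NRF2, 8 rose and 1 fell in KPC quadriceps relative to no tumor, where 26.7% of all genes were called up and 29% down, with a median log2 FC of 1.45. The small MAF partners rose: Maff from 4.66 ± 0.94 to 64.0 ± 31.2 CPM (log2 FC 3.76, edgeR FDR 8.18e-06), Mafk with a log2 FC of 3.20 and Mafg with 1.68. Bach1, a repressor that competes with NRF2 for the same elements, had a log2 FC of 2.78 (edgeR FDR 2.59e-05). Sqstm1, whose product p62 binds KEAP1 and carries it to autophagy, had the highest level of the list and went from 504 ± 82.9 to 3189 ± 491 CPM (log2 FC 2.66, edgeR FDR 1.78e-06). Cul3, Gsk3b and Dpp3 also rose, and Btrc, part of the other ligase that degrades NRF2, fell by 0.76 on the log2 scale (edgeR FDR 0.00160). In KPC IL6KO the same 11 genes had 0 calls, with Maff at 2.88 ± 0.41 CPM and Sqstm1 at 704 ± 151 CPM.

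The enzyme lists were mixed in direction, and the share that rose in the glutathione, thioredoxin, haem and iron, detoxifying and superoxide lists was near that of all genes (26.7% called up and 29% called down). Of 28 measured genes of glutathione use (30 listed), 8 rose and 4 fell in KPC, with a median log2 FC of 0.29. Chac1, which degrades glutathione, had the highest log2 FC (1.68, edgeR FDR 0.0147) and lost its call without no tumor 2 (1.33, edgeR FDR 0.0591), Gpx3 was the most abundant (log2 FC 1.19) and Gpx8 was the lowest (-2.40). Of 20 thioredoxin and peroxiredoxin genes, 6 rose and 3 fell, led by Sesn1, encoding sestrin 1, from 23.9 ± 2.54 to 451 ± 152 CPM (log2 FC 4.24, edgeR FDR 1.24e-06). Prdx1, a peroxiredoxin and the most abundant of the list, had a log2 FC of 1.02, and Sesn3 was the lowest at -0.97. Of 13 genes that supply NADPH, 2 rose and 5 fell. Pgd, of the pentose phosphate pathway, had a log2 FC of 1.05 and Idh1 of -1.36 (edgeR FDR 2.31e-04), and Idh2, the most abundant, had 0.51 and was called only without KPC 1 (0.75, edgeR FDR 0.0311).

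Of 16 genes of haem and iron handling, 4 rose and 5 fell in KPC quadriceps. Slc48a1, a haem transporter, had a log2 FC of 1.21, Fth1, the ferritin heavy chain and the most abundant of the list, of 0.74, and Tfrc, the transferrin receptor, went from 89.4 ± 12.2 to 5.07 ± 1.14 CPM (log2 FC -4.14, edgeR FDR 9.01e-06). Fth1 was not called with library totals, where its log2 FC of 0.54 was under the FC threshold. Of 19 measured detoxifying genes (23 listed), 5 rose and 5 fell, from Pir (2.44) to Nqo2 (-3.16), with Ftl1, the ferritin light chain, as the most abundant (0.97). Of 13 genes that make or remove superoxide and peroxide, 4 rose and 5 fell, from Nox4 (1.45), an NADPH oxidase, to Duox1 (-3.36), and Sod1, the cytosolic superoxide dismutase and the most abundant, had 1.44. Of 12 genes around Txnip, 7 rose and 1 fell. The arrestin relative Arrdc3 had the highest log2 FC (4.04, edgeR FDR 5.98e-06), Mlxipl, which encodes ChREBP, the lowest (-1.82, edgeR FDR 4.76e-06), Foxo1 had 2.82 and Foxo3 2.07. Arrdc2, the most abundant, had 1.28 with an edgeR FDR of 0.127, and was called without KPC IL6KO 1 (1.28, edgeR FDR 0.0463) and with only both groups in the fit (1.31, edgeR FDR 0.0119). In KPC IL6KO against no tumor none of these lists had a call, by the quasi-likelihood test, and their medians ran from -0.05 to 0.15. The likelihood ratio test called Tkt, a transketolase gene of the NADPH list, down (log2 FC -1.72, FDR 0.0122), where it called 0.546% of all genes down. DESeq2 called Tkt (FDR 0.00623) and Heph, a ferroxidase gene of the iron list (FDR 0.0434), where it called 0.537% down.

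In epididymal fat none of the 10 genes was called in any of the 3 comparisons, and neither was any other gene (0%) by the quasi-likelihood test. Hmox1 and Gsr had the largest differences between KPC and no tumor, 3.67 and 1.66 on the log2 scale, and were the members whose groups did not overlap, against 6.52% of all genes with KPC higher. Their unadjusted p was 0.00591 and 0.00176, where 12.2% of genes had a p under 0.05, and their edgeR quasi-likelihood FDR was 0.255 and 0.225. The likelihood ratio test called both (FDR 0.0221 and 0.0137), where it called 1.58% of genes up. DESeq2 called Gsr (FDR 0.00567) and gave no adjusted p for Hmox1, where it called 2.16% of genes up.

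**Figure D4:**
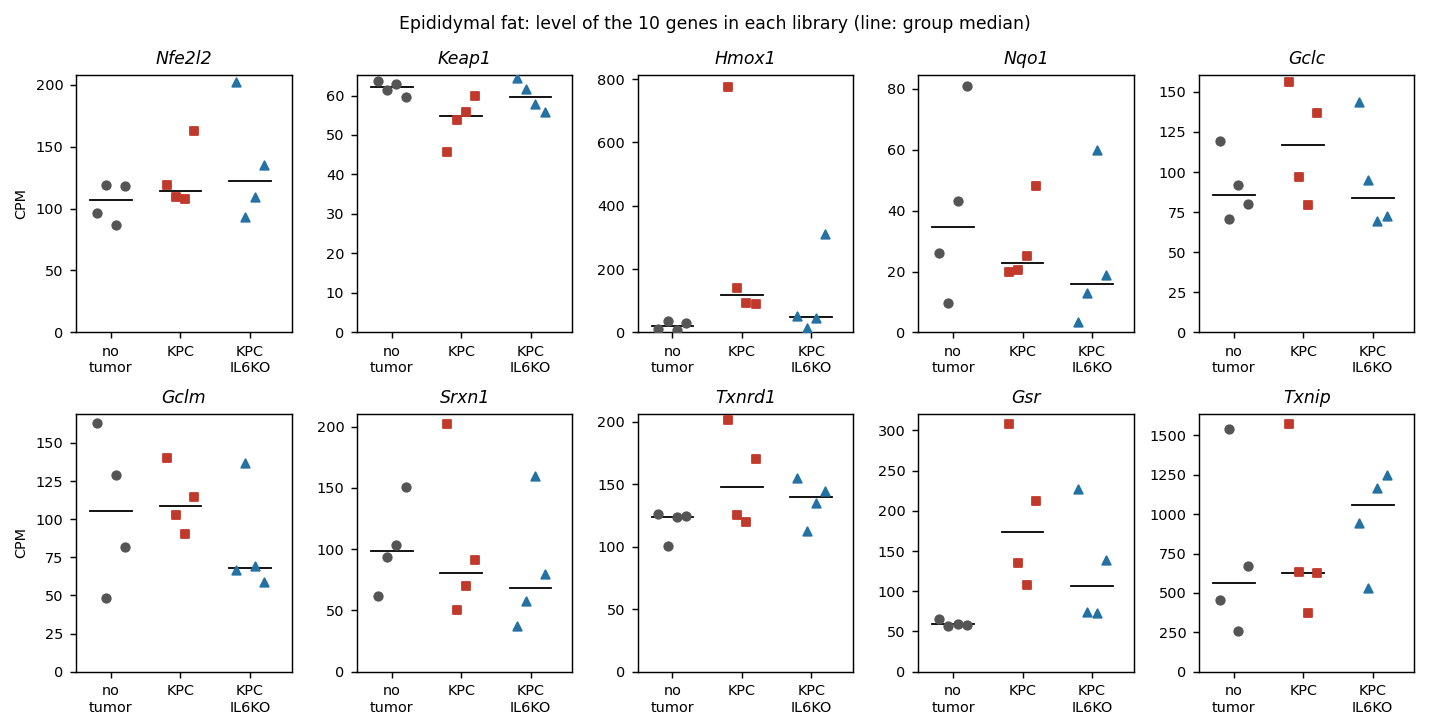
CPM of each of the 10 genes (vertical axes, from 0) in every epididymal fat library of no tumor (circles), KPC (squares) and KPC IL6KO (triangles), 4 of each, with lines at the group medians. Only Hmox1 and Gsr have all 4 KPC points above all no tumor points, and KPC 5 stands far above the rest for Hmox1.

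Hmox1 was at 11.9, 36.6, 8.97 and 28.8 CPM in no tumor pads, at 776, 139.8, 94.0 and 90.4 CPM in KPC and at 51.2, 13.2, 44.0 and 312 CPM in KPC IL6KO. KPC 5 was more than 5 times as high as any other KPC pad, and KPC IL6KO 8 stood apart from its group in the same way. The standard error of the KPC difference from no tumor was 1.08, and the log2 FC without KPC 5 was 2.33 (edgeR FDR 0.594). For KPC IL6KO against no tumor the log2 FC was 2.28 (edgeR FDR 0.529, unadjusted p = 0.0468), and 0.75 without KPC IL6KO 8. Gsr was at 66.1, 57.3, 59.3 and 58.6 CPM in no tumor, at 308, 135, 108 and 212 CPM in KPC and at 227, 74.7, 72.7 and 139 CPM in KPC IL6KO. The no tumor pads lay close together and below every tumor pad, with a log2 FC of 1.66 in KPC (standard error 0.41) and 1.09 in KPC IL6KO (standard error 0.40, edgeR FDR 0.451). It was the member of KPC IL6KO against no tumor without overlap, against 1.52% of genes. In that comparison Hmox1 and Gsr had an unadjusted edgeR p under 0.05, as did 9.34% of genes, and the likelihood ratio test called 0 members and 1.23% of genes up.

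The macrophage marker sum was higher in the same pads. The 10 markers summed to 205 to 732 CPM in no tumor, 913 to 1593 CPM in KPC and 363 to 2518 CPM in KPC IL6KO. In KPC the highest sum was in KPC 5 and in KPC IL6KO in KPC IL6KO 8, the pads with most Hmox1. In no tumor the highest was in no tumor 6, again the pad with most Hmox1. Single markers did not all follow the sum. In KPC 5 Cd68, Cd163 and Marco were the highest of the KPC pads, at 134, 238 and 89.6 CPM. Adgre1 was the lowest there, at 30.2 CPM against 33.8 to 48.6 CPM in the other KPC pads. In KPC IL6KO 8 Adgre1 was the highest of its group, at 167 CPM. The match between pads was not particular to macrophage markers. Fibroblast marker sums were also highest in no tumor 6, KPC 5 and KPC IL6KO 8 (3101, 4434 and 4300 CPM), as were neutrophil marker sums. Red blood cell markers (2 of 6 measured) were at 8.35 to 24.9, 29.7 to 57.7 and 5.94 to 30.4 CPM in the 3 groups. Their sum was highest in no tumor 6, KPC 6 and KPC IL6KO 7. In KPC 5 and KPC IL6KO 8, the tumor pads with most Hmox1, it was 49.2 and 23.4 CPM. Haem oxygenase 1 is known to be abundant in macrophages that take up red blood cells. Neutrophil markers (5 of 8 measured) were at 2.79 to 6.37, 21.9 to 52.5 and 4.32 to 62.8 CPM, and the 6 mesothelium markers at 212 to 416, 347 to 728 and 234 to 1386 CPM. The 4 pads with most mesothelium transcripts, KPC 5 and 8 and KPC IL6KO 5 and 8, were also the 4 with most Gsr. The part of these cell types in the Hmox1 and Gsr values was not tested.

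**Figure D5:**
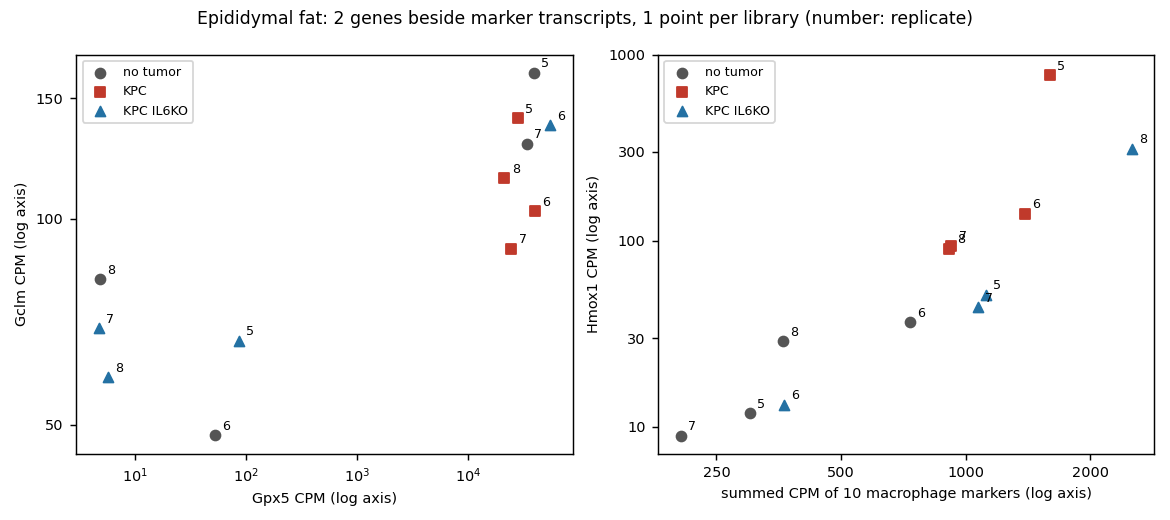
Epididymal fat, 1 point per library on log axes, numbered by replicate: Gclm CPM against Gpx5 CPM (left) and Hmox1 CPM against the summed CPM of 10 macrophage markers (right). Gclm runs from 90.4 to 163 CPM in the 7 pads with much Gpx5 and from 48.2 to 81.6 CPM in the remaining 5. The pad with the highest macrophage marker sum in each group is also the one with most Hmox1. The same pads also have the highest fibroblast and neutrophil marker sums of their groups (not drawn).

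The remaining members overlapped between all fat groups. Nfe2l2 was at 96.3, 119, 86.9 and 118 CPM in no tumor, at 119, 109.6, 107 and 163 CPM in KPC and at 202, 93.5, 109 and 135 CPM in KPC IL6KO, with 1 high pad in either tumor group. Keap1 was at 63.7, 61.5, 62.8 and 59.7 CPM in no tumor, at 45.6, 53.8, 55.9 and 60.0 CPM in KPC and at 64.4, 61.7, 57.8 and 55.8 CPM in KPC IL6KO. It was the steadiest of the 10 genes in no tumor fat, with a coefficient of variation of 2.82%, and its log2 FC in KPC was -0.20 (standard error 0.12, edgeR FDR 0.530). The ratio of Keap1 to Nfe2l2 ran from 0.318 to 0.723 in fat, below every quadriceps library, and was -0.75 ± 0.26, -1.20 ± 0.25 and -1.11 ± 0.45 on the log2 scale (SD, n = 4) in no tumor, KPC and KPC IL6KO. The difference of -0.45 between KPC and no tumor had p = 0.0857 in the exact permutation test (adjusted p = 0.147).

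Gclc was at 119.5, 70.5, 91.7 and 80.1 CPM in no tumor, at 156, 96.9, 79.5 and 137 CPM in KPC and at 143, 95.3, 69.2 and 72.5 CPM in KPC IL6KO. Gclm was at 163, 48.2, 129 and 81.6 CPM in no tumor, at 140.2, 103, 90.4 and 115 CPM in KPC and at 66.4, 137, 69.2 and 58.7 CPM in KPC IL6KO. Gclm was higher in all 7 pads with much Gpx5, at 90.4 to 163 CPM, than in the other 5, at 48.2 to 81.6 CPM, a pattern that 5.59% of genes showed, and it was the member that did so. Its log2 FC in KPC against no tumor was 0.09 (standard error 0.37, edgeR FDR 0.942), -0.26 with Gpx5 as a covariate and -0.29 among the pads with much Gpx5. These fits follow Gpx5 alone and not the whole epididymis list, and the part of epididymis tissue in the Gclm values was not tested. The log2 ratio of Gclm to Gclc was 0.10 ± 0.48, -0.04 ± 0.20 and -0.22 ± 0.68 (SD, n = 4) in the 3 groups, with an exact permutation p of at least 0.514.

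Srxn1 was at 61.6, 93.6, 104 and 151 CPM in no tumor, at 202, 50.6, 70.1 and 91.1 CPM in KPC and at 37.5, 57.5, 159.5 and 79.8 CPM in KPC IL6KO. Its log2 FC in KPC was 0.01 (standard error 0.51). In KPC and in KPC IL6KO 1 pad stood high, at 202 and 159.5 CPM, while the no tumor pads were spread from 61.6 to 151 CPM. Txnrd1 was at 126, 101, 123 and 124 CPM in no tumor, at 201, 125, 120.1 and 170.0 CPM in KPC and at 155, 112, 135 and 145 CPM in KPC IL6KO, and its log2 FC in KPC was 0.38 (standard error 0.19, edgeR FDR 0.461), close in size to that in quadriceps. Txnip was at 455, 1540.4, 258 and 670.1 CPM in no tumor, at 1571, 632, 373 and 624 CPM in KPC and at 942, 533, 1168 and 1246 CPM in KPC IL6KO, and the 3 groups overlapped over most of their range. Nqo1 was at 26.1, 9.55, 43.2 and 80.9 CPM in no tumor, at 19.9, 20.7, 24.96 and 48.1 CPM in KPC and at 3.39, 12.9, 60.0 and 18.7 CPM in KPC IL6KO. Its log2 FC of -0.49 in KPC had a standard error of 0.78. For KPC against KPC IL6KO the smallest FDR of a member was 0.930 (Gsr, edgeR quasi-likelihood).

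Per kilobase of exon, Txnip was highest in no tumor fat (234 ± 181 CPM per kilobase, SD, n = 4) and did not overlap with Srxn1, the next, whereas Hmox1 was lowest (12.3 ± 7.59). In KPC fat Hmox1 ranked second at 157 ± 191 CPM per kilobase and overlapped with both neighbours, Txnip and Gsr. Keap1, second in every quadriceps group, was ninth or last in fat.

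The 8 pathway lists had 0 calls in each fat comparison by the quasi-likelihood test. The smallest FDR in KPC against no tumor was 0.255, and the medians ran from -0.31 for detoxifying enzymes to 0.24 for superoxide and peroxide genes, where the median of all genes was -0.10. Ncf1, a subunit of the phagocyte NADPH oxidase, was at 41.4 CPM in KPC against 11.9 CPM in no tumor (log2 FC 1.80, edgeR FDR 0.255) and passed with the likelihood ratio test (FDR 0.0437), DESeq2 (FDR 0.0288) and a fit of only both groups (edgeR FDR 0.0258). Akr1b8, an aldo-keto reductase, had a log2 FC of 2.41 and Ces1d, a carboxylesterase of adipocytes, of -2.25, with edgeR FDR of 0.284 and 0.303, and both passed with DESeq2 (FDR 0.0421 and 0.04999), where it called 1.31% of genes down. Maff had 1.69, Nfe2l1 -0.50, Mgst2 1.83, Gstz1 -1.40 and Gpx3, the most abundant glutathione gene, -1.34. For Prdx4 the log2 FC was 0.57, for Txnrd3 -0.90, for Me1, the cytosolic malic enzyme, -1.62 and for Heph -1.45, with an FDR of 0.317 to 0.597 for these genes. The highest genes of the other lists were Mthfd1 (0.30), Slc40a1 (0.94) and Arrdc1 (0.37), and the lowest were Cat (-0.94) and Prkaa2 (-1.005). Among the most abundant, Prdx1 had 0.21, Tkt -0.77, Ftl1 0.15, Sod1 -0.06 and Txn1 -0.05. Among the pads with much Gpx5 the log2 FC of Me1, Cat and Sod1 was 0.39, 0.71 and 0.27, of opposite sign, that of Mgst2 was 3.95, and those of Ces1d, Gstz1, Heph, Tkt and Nfe2l1 were -0.24, -0.15, -0.33, -0.11 and -0.20. Without no tumor 6 the log2 FC was -1.28 for Ces1d, -0.59 for Gstz1, -0.69 for Heph, -0.56 for Me1, -0.22 for Tkt and -0.23 for Nfe2l1.

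The KPC effect was compared between the tissues in 1 fit of all 23 libraries over the 12599 genes in both tables. TMM factors were computed over both tissues together, so a difference need not equal that between the log2 FC of the separate fits. The separate fits gave 1.69 in quadriceps and 1.66 in fat for Gsr, and 0.388 and 0.378 for Txnrd1. For 4 members the KPC effect was larger in quadriceps than in fat, against 18.1% of genes. The differences in log2 FC were 2.19 for Gclm (standard error 0.42, edgeR FDR 4.87e-04), 1.92 for Srxn1 (standard error 0.61, edgeR FDR 0.0183), 1.29 for Keap1 (standard error 0.18, edgeR FDR 2.49e-05) and 0.97 for Nfe2l2 (standard error 0.29, edgeR FDR 0.0127). For Txnip the difference was 1.70 (edgeR FDR 0.0688), and it passed without fat no tumor 7 (1.98, edgeR FDR 0.0302) or without fat KPC 5 (2.25, edgeR FDR 0.0157), while without fat no tumor 6 it was 1.04 (edgeR FDR 0.198). Gsr and Txnrd1 had differences of -0.08 (standard error 0.46) and -0.10 (standard error 0.24), Gclc of 0.64 (edgeR FDR 0.131), Nqo1 of 1.31 (standard error 0.91) and Hmox1 of -1.76 (standard error 1.08, edgeR FDR 0.207), which was -0.42 without fat KPC 5. These did not pass the test, which does not show that the effects were equal. The fit treats the 23 libraries as separate mice, which the sources used here do not state. RNA of the tissues was isolated and sequenced separately, so tissue and batch cannot be told apart in the levels, while each KPC effect was taken within its own tissue.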

How the data were processed

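RNA of mouse quadriceps and epididymal fat was sequenced in 23 libraries, 1 per mouse within a tissue, and each was given its group from its sample labels. The authors aligned paired reads with STAR to mm10, counted uniquely mapped reads per gene with featureCounts 1.5.1, and deposited 1 raw count table per tissue without genes of few counts (their notes also name FastQC and edgeR 3.12.1). Methods and labels name different library kits. The authors left 1 muscle library of the no tumor group out of their analysis, and it was not used here.

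Counts were scaled by TMM and tested with the quasi-likelihood method of edgeR 4.0.16 (limma 3.58.1, R 4.3.3), with the 3 groups of a tissue in 1 fit. Calls needed an FDR (Benjamini-Hochberg) no higher than 0.05 together with a 1.5-fold change or more. The standard error is the log2 FC divided by the square root of F. The filterByExpr filter removed no gene. Ratios had 0.5 counts added to both genes for the test and were compared by 2-sided exact permutation. On simulated data with 100 genes changed 4-fold and 100 changed 2-fold, 96 and 70 were recovered for KPC against no tumor in quadriceps (12831 genes) and 47 and 2 in fat (16962 genes).

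Alternatives were DESeq2 1.42.0, the edgeR likelihood ratio test, the newer quasi-likelihood fit, RLE scaling, 2 filters, only the compared groups, a replicate block, Gpx5 as a covariate or a criterion for pads, and leaving out each library. Library totals without TMM factors were added after seeing the data. The members, lists and tests were chosen with earlier results of these data known. Named genes were the 10 members and, of each pathway list, the highest and lowest log2 FC in KPC per tissue and the most abundant gene. For Nfe2l2 and Gclm, the 3 closest genes, among those whose mean log2 CPM was 1 or more, were also named. Mafk, Mafg, Bach1, Cul3, Gsk3b, Dpp3, Foxo1 and Foxo3 were named after their values were seen. Gene positions are from the GRCm38 annotation (mm10). Figures used Python 3.11.15 and matplotlib 3.10.9.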

Additional observations from a re-analysis of the deposited data

Results flagged for a closer look

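In groups of 4 fat pads, 4 levels of members stood apart from their group by Dixon's criterion. They were Hmox1 at 776.4 CPM in KPC 5 and at 312 CPM in KPC IL6KO 8, Gclm at 137 CPM in KPC IL6KO 6 and Txnrd1 at 101 CPM in no tumor 6, where the last was below its group. With 50 groups examined, chance gives about 2.5 such cases. KPC IL6KO 6 was the 1 pad of its group with much Gpx5. KPC 5 and KPC IL6KO 8 had the highest macrophage marker sum of their groups, at 1593 and 2518 CPM. Their fibroblast and neutrophil marker sums were also the highest of their groups.

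The effect of a KPC tumor differed between quadriceps and fat, by the interaction test, for 4 members. The same test called 18.1% of the 12599 genes in both tables with a larger effect in quadriceps, so such a difference was not particular to these members. In the joint fit of both tissues the log2 FC in quadriceps exceeded that in fat by 0.97 for Nfe2l2, 1.29 for Keap1, 2.19 for Gclm and 1.92 for Srxn1.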

How the results depend on the processing

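The number of members called in quadriceps was 9 for KPC against no tumor and 0 for KPC IL6KO against no tumor under all 20 alternatives, and 8 or 9 for KPC against KPC IL6KO. For the difference between tissues it was 4 or 5 under 26 alternatives. In fat, KPC against no tumor had 0 members by the main test, 2 by the likelihood ratio test and 1 by DESeq2, while its other alternatives gave 0. Nothing in the labels ties libraries with the same number. Deviations of libraries with the same number had correlations of -0.15 to 0.26 (2 of 10 over 0.1) in quadriceps and -0.54 to 0.65 (7 of 12) in fat, and the replicate block left 9, 0 and 8 members called in quadriceps and 0 in fat. In fat, small effects changed sign. Srxn1 in KPC against no tumor (0.01) was at -0.00742 by DESeq2, -0.00748 by RLE, -0.00981 with at least 10 counts and -0.0114 with the replicate block. With library totals Sod1 was at 0.0168 and Txn1 at 0.0551. With Gpx5 as a covariate Gclm was at -0.26, and, in KPC against KPC IL6KO, Nfe2l2 at 0.15, Gclm at -0.17 and Txnip at 0.66. Among pads with much Gpx5, Gclm was at -0.29, Me1 at 0.39, Cat at 0.71 and Sod1 at 0.27. By RLE the tissue difference was 0.00137 for Txnrd1 and 0.0152 for Gsr. Leaving out each library in turn gave, for KPC against no tumor in fat, Srxn1 -0.54 to 0.26, Txnip -0.43 to 0.80, Gclm -0.15 to 0.38, Nqo1 -0.87 to 0.11, Cat -1.27 to 0.0201, Sod1 -0.22 to 0.16, Txn1 -0.16 to 0.14 and Ftl1 -0.0587 to 0.41. It gave -0.20 to 0.24 for Gclc in KPC IL6KO against no tumor and, in KPC against KPC IL6KO, -0.24 to 0.86 for Srxn1, -0.12 to 1.32 for Nqo1, -0.27 to 0.15 for Nfe2l2, -0.11 to 0.44 for the ratio of Gclm to Gclc and -0.27 to 0.0835 for that of Keap1 to Nfe2l2. The tissue difference was -0.24 to 0.06 for Txnrd1 and -0.26 to 0.24 for Gsr. The cause was not tested. None of these effects was called. Fat limits what 4 mice a group can show, since 47 of 100 simulated 4-fold changes were recovered there.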
